A study of Danio rerio with 12 samples.

Results

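The epithelial identity genes elf3, ehf, grhl1, grhl2a, grhl2b, klf4, ovol1a, esrp1, esrp2 and kdf1a were followed in zebrafish gill and intestine cells. They were chosen by name, to see which of them accompany the epithelial adhesion genes epcam and cdh1 in GFP cells of gill and intestine, and all 10 were found among the 32520 genes of the deposited tables. Of the 10, 7 encode DNA-binding transcription factors. The genes esrp1 and esrp2 encode RNA-binding splicing regulators and kdf1a encodes keratinocyte differentiation factor 1, so "transcription factor" is not exact for the whole set.

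All 12 samples came from adult zebrafish carrying the transgenes sox17:CreERT2 and mpeg1:loxP-DsRedx-loxP-GFP together. In these fish the promoter of sox17, an endoderm gene, drives a tamoxifen-dependent Cre, and the promoter of mpeg1, a gene of macrophages, drives a cassette that changes from DsRedx to GFP once Cre has cut it. The series description calls the GFP cells metaphocytes and the DsRedx cells macrophages. The 4 groups were gill GFP, gill DsRedx, intestine GFP and intestine DsRedx, each with n = 3 libraries of 30 to 50 sorted cells amplified by SMART-seq2. The labels do not say when tamoxifen was given or whether replicates came from different fish, so p-values measure the spread between these samples, which may be technical.

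Epithelial cells hold each other through adherens junctions, built on E-cadherin (cdh1), and tight junctions, and EPCAM is a surface protein of most simple epithelia. In mammals the ETS factors ELF3 and EHF and the grainyhead-like factors activate junction genes. OVOL factors repress mesenchymal genes, KLF4 promotes differentiation in skin and gut epithelium, and ESRP1 and ESRP2 impose the epithelial pattern of splicing. These genes are known from epithelial linings, which does not mean that each of them is absent from other cells, macrophages included.

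The libraries held 5895669 to 12365233 counts and 9506 to 13278 genes with a count, most in intestine GFP. Levels are given in TPM (scaled for gene length and to the same total in each library), so they can be compared between genes. In each tissue, abundant genes also left a low trace in the libraries where they were lowest. Among genes with a tissue mean of at least 100 CPM whose lowest library lay under 0.03 of that mean, the lowest library held a median of 1.30% of the mean in gill (437 genes) and 1.54% in intestine (304 genes). The cause of this trace was not tested. A gene is called above the trace here in a library with at least 10 counts and more than 5 times that share of its own tissue mean. This rule was chosen after the values had been seen and carries no test.

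Markers of the cells that the sorts could hold were read first. The 11 leukocyte markers summed to 15880 to 23780 TPM in gill GFP against 33040 to 42720 TPM in gill DsRedx libraries. In intestine they summed to 4373 to 5821 TPM in GFP against 19870 to 26190 TPM in DsRedx libraries, and most of the sum was cd74a, an MHC class II chaperone. The single markers did not all follow the sum. The pan-leukocyte gene ptprc (CD45) was at 0.652 to 1.53 TPM in GFP and 104.7 to 299.2 TPM in DsRedx libraries. The actin-binding gene lcp1 overlapped, at 909.6 to 1957 TPM in GFP and 740.9 to 2372 TPM in DsRedx libraries, and coro1a, another actin regulator of leukocytes, was higher in GFP, at 257.7 to 602.5 against 12 to 285.2 TPM, with no overlap within a tissue. The 8 surface epithelium markers summed to 6201 to 15680 TPM in gill GFP and 16910 to 17530 TPM in intestine GFP, against 140 to 658 TPM in DsRedx libraries. Most of that was icn (ictacalcin), while krtt1c19e was at 0 in every library and tp63 reached at most 4.98 TPM. The 7 enterocyte markers were at 0 in gill GFP and summed to 3667 to 4139 TPM in intestine GFP and 31.7 to 88.3 TPM in intestine DsRedx. The 2 neutrophil markers and the 1 erythrocyte marker that could be matched were at 0 in all libraries. The neutrophil gene mpx and the erythrocyte gene hbba1 were not found by name, so they were not read. Single libraries stood apart for single genes of other lists. The ionocyte factor gene foxi3a was at 36.7 TPM in gill GFP 3, the library with most kdf1a and esrp2, and at most 0.351 TPM elsewhere. It was the only 1 of the 5 ionocyte markers above the trace there. The ionocyte list as a whole went the other way, with sums up to 209.8 TPM in gill DsRedx and 94.5 to 254.5 TPM in intestine DsRedx. The T cell gene lck was at 23.6 and 135 TPM in gill DsRedx 2 and 3, and the collagen gene col1a2 was at 38.7 TPM in gill DsRedx 3. Of the 4 T cell markers, 1 was above the trace in gill DsRedx 2 and 2 in gill DsRedx 3. Of the 4 stroma markers, 1 was above the trace in gill DsRedx 3 and the other 3 were at 0. Another gene of the T cell list, cd4-1, was at 92.2 and 180.5 TPM in intestine DsRedx 2 and 3. In both of these intestine libraries it was the only 1 of the 4 T cell markers above the trace, so the rest of that list did not go with it. The part of these other cell types in the results below was not tested, and in pools of cells a smaller share of expressing cells cannot be told apart from less RNA per cell.

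The companions epcam and cdh1 set the pattern with which the 10 genes were compared. The epcam level was 2076, 2594 and 594 TPM in gill GFP libraries 1 to 3 and 1854, 1669 and 3192 TPM in intestine GFP libraries 1 to 3. It was 14.8 to 39.6 TPM in gill DsRedx and 16.4 to 21.9 TPM in intestine DsRedx libraries, all within the trace. The groups did not overlap in either tissue, as for 12.1% of all tested genes in gill and 19.4% in intestine. The cdh1 level was 528, 478 and 363 TPM in gill GFP and 407, 392 and 512 TPM in intestine GFP libraries 1 to 3. It was 4.07, 36.2 and 5.09 TPM in gill DsRedx and 30.9, 3.44 and 3.36 TPM in intestine DsRedx, so gill DsRedx 2 and intestine DsRedx 1 stood above the trace.

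Both companions were higher in GFP cells of each tissue. Over the mean of the tissues the log2 fold change was 6.05 (SE 0.53) for epcam and 4.55 (SE 0.70) for cdh1, with adjusted p = 1.64e-07 and 0.000175 by the quasi-likelihood test of edgeR, adjusted after Benjamini and Hochberg, which gave every adjusted p below unless another tool is named. Both calls held in each of the 12 fits that left out 1 library. Within a tissue cdh1 lost its call once the shared low trace was subtracted, with a log2 fold change of 4.81 in gill (adjusted p = 0.145) and 5.19 in intestine (0.139).

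Of the 10 genes, 7 passed the low-count filter and were tested, and grhl1, grhl2a and ovol1a did not pass. Over the mean of both tissues, 5 of the 7 were higher in GFP cells (elf3, ehf, grhl2b, esrp1 and kdf1a) and none was lower, where 10.5% of all tested genes were higher and 7.3% lower. The genes esrp2 (adjusted p = 0.0621) and klf4 (adjusted p = 0.145) were not called. In gill alone 1 of 7 was called higher (kdf1a), with 2.29% of all tested genes called higher. In intestine alone 2 of 7 were called higher (elf3 and kdf1a), with 2.09% of all tested genes called higher. With the number of genes detected in a library as a covariate, the count over both tissues was 2 of 7 (elf3 and kdf1a), beside 3.14% of all tested genes. DESeq2 called 4 of the 6 members it gave an adjusted p in gill and 4 of 6 in intestine, where it called 24.5% and 17.6% of all tested genes. These shares count genes without an adjusted p as not called, whereas esrp1, the member without one, is left out of the 6. Over all tested members it was 4 of 7 in each tissue. The filter keeps a gene that is high in 1 group only, so these shares describe the tested genes and not the full 10.

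**Figure D1:**
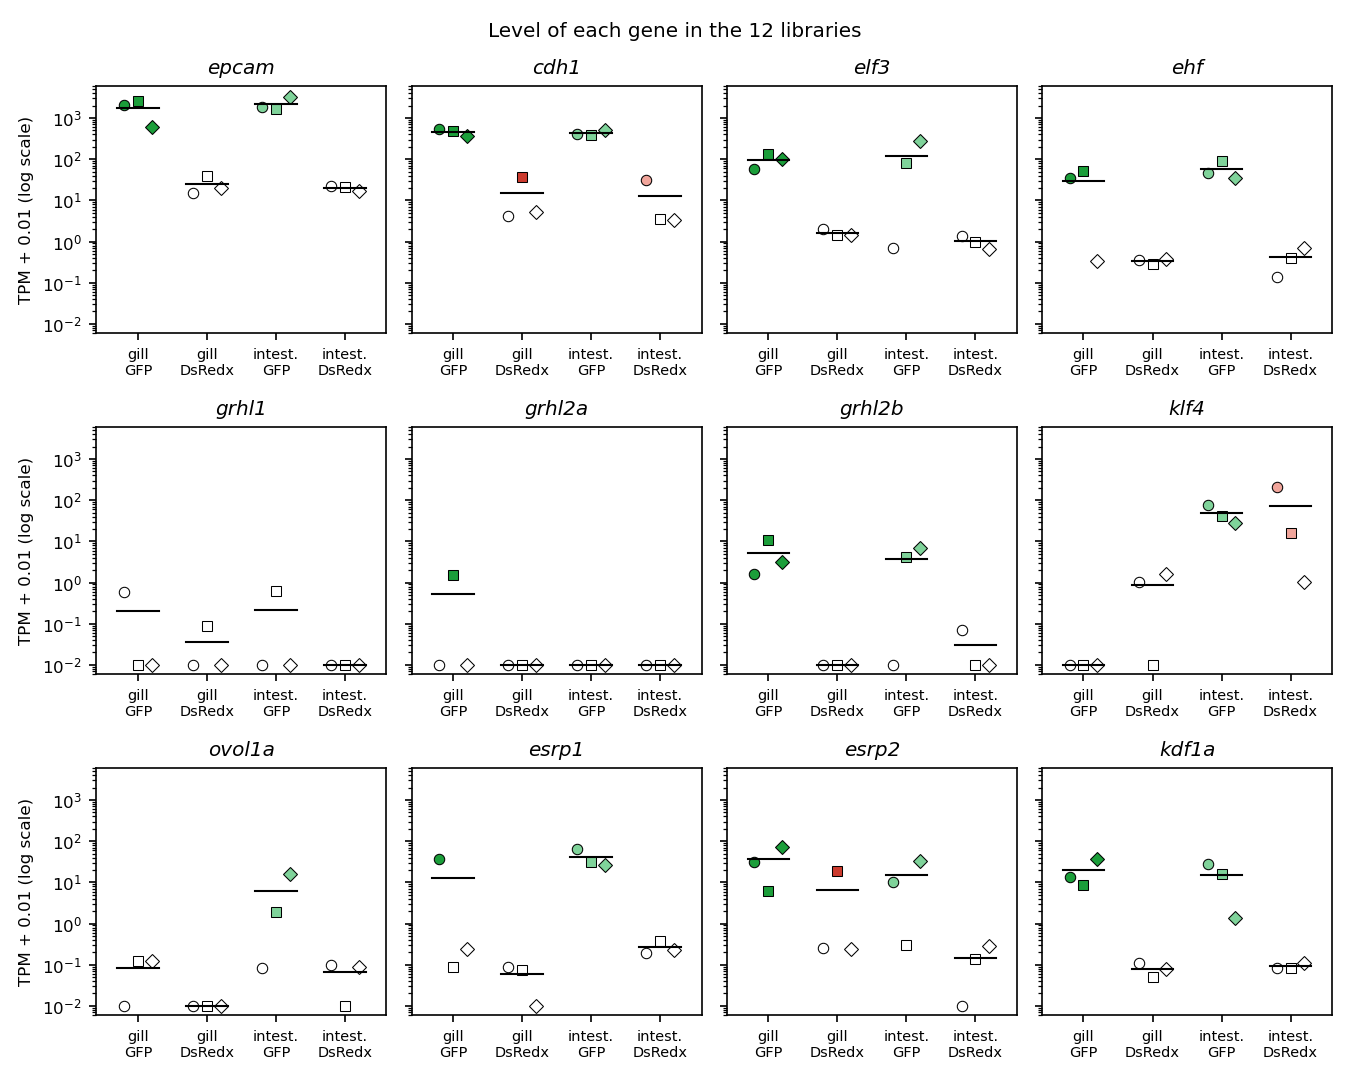
TPM plus 0.01 on a log axis for epcam, cdh1 and the 10 genes in the 4 groups; each point is 1 library (circle, square and diamond for replicates 1, 2 and 3), filled where the gene stood above the trace, and the line is the group mean. In GFP libraries epcam, cdh1 and kdf1a are filled in all 6, while klf4 is filled in intestine only and grhl1 nowhere.

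The keratinocyte differentiation factor gene kdf1a (ENSDARG00000079834) was the only one of the 10 that, like epcam, was above the trace in all 6 GFP libraries and in none of the DsRedx libraries. It was read at 13.4, 8.80 and 37.4 TPM in gill GFP libraries 1 to 3 and at 28.2, 16.4 and 1.35 TPM in intestine GFP libraries 1 to 3. In gill DsRedx it was at 0.0984, 0.0390 and 0.0707 TPM and in intestine DsRedx at 0.0729, 0.0748 and 0.0993 TPM, which is 1 to 3 counts per library. Every GFP library lay above every DsRedx library, and intestine GFP 3 was the lowest of the GFP libraries. Among GFP libraries its level did not follow that of epcam: kdf1a was highest in gill GFP 3, where epcam was lowest, and lowest in intestine GFP 3, where epcam was highest. Groups that did not overlap, GFP above DsRedx over both tissues, were found for 3.03% of all tested genes.

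The kdf1a difference was 170.0-fold over the mean of both tissues (log2 fold change 7.41, SE 1.43, adjusted p = 0.00151), and the call held without any 1 of the 12 libraries. The difference was 7.73 (SE 2.06, adjusted p = 0.0358) on the log2 scale in gill and 7.08 (SE 1.99, adjusted p = 0.0480) in intestine. The calls within a tissue were close to the threshold. In gill the call was lost without any 1 of the 6 gill or 3 intestine GFP libraries (adjusted p 0.0545 to 0.134), and in intestine without any 1 of the 6 intestine or 3 gill GFP libraries (0.0691 to 0.244). Its paralog kdf1b was above the trace in 3 of 6 GFP libraries (gill GFP 2, intestine GFP 2 and 3) and was not called (adjusted p = 0.0772). In mice KDF1 restrains the proliferation of epidermal progenitors.

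The ETS factor gene elf3 (ENSDARG00000077982), an epithelial activator in mammalian gut and skin, had the highest mean of the 10 in GFP cells of both tissues, though its libraries overlapped those of the next member. It was read at 58.2, 134.6 and 100.9 TPM in gill GFP libraries 1 to 3 and at 0.683, 79.6 and 273.4 TPM in intestine GFP libraries 1 to 3. It was at 1.98, 1.47 and 1.42 TPM in gill DsRedx and at 1.38, 0.940 and 0.666 TPM in intestine DsRedx. The gill groups did not overlap, as for 12.1% of all tested genes. In intestine, GFP 1 lay within the DsRedx range with 9 counts, while the other two GFP libraries were far above it. The DsRedx libraries were within the trace, at 0.565 to 2.02% of the GFP mean of their tissue.

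Over both tissues elf3 was 65.5-fold higher in GFP cells (log2 fold change 6.03, SE 1.17, adjusted p = 0.00151), a call that held without any 1 of the 12 libraries. In intestine it was called (6.58, SE 1.69, adjusted p = 0.0294) and in gill it was just outside the threshold (5.49, SE 1.61, adjusted p = 0.0548). Leaving out intestine GFP 1 brought the gill value to adjusted p = 0.0389. The intestine call was lost without intestine GFP 2 (0.0715), without intestine GFP 3 (0.270) and without any 1 of the 3 intestine DsRedx libraries (0.104 to 0.128).

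The related ETS gene ehf (ENSDARG00000052115) was above the trace together with elf3 in 4 of the 6 GFP libraries. It was read at 35.6, 51.3 and 0.324 TPM in gill GFP libraries 1 to 3 and at 46.6, 90.2 and 35.6 TPM in intestine GFP libraries 1 to 3. It was at 0.342, 0.271 and 0.369 TPM in gill DsRedx and at 0.127, 0.390 and 0.691 TPM in intestine DsRedx, which is 1 to 6 counts per library. Gill GFP 3, with 2 counts, lay inside the DsRedx range, and the intestine groups did not overlap, as for 19.4% of all tested genes. Over both tissues ehf was 79.9-fold higher in GFP cells (log2 fold change 6.32, SE 1.56, adjusted p = 0.0101), and the call held without any 1 of the 12 libraries. It was not called in gill (adjusted p = 0.109) or intestine (adjusted p = 0.106) alone.

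Every GFP library had at least 1 of the 2 ETS genes above the trace. The library without elf3, intestine GFP 1, had ehf, and the library without ehf, gill GFP 3, had elf3. The summed level of elf3 and ehf was 93.9, 185.9 and 101.2 TPM in gill GFP, 47.3, 169.8 and 309.0 TPM in intestine GFP, and 1.33 to 2.32 TPM in the 6 DsRedx libraries. This sum was formed after the single values had been seen and carries no test. Single GFP libraries had 47.2 to 80.95% of all tested genes above the trace. How often a pair of genes has at least 1 above it in every GFP library was not computed.

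**Figure D2:**
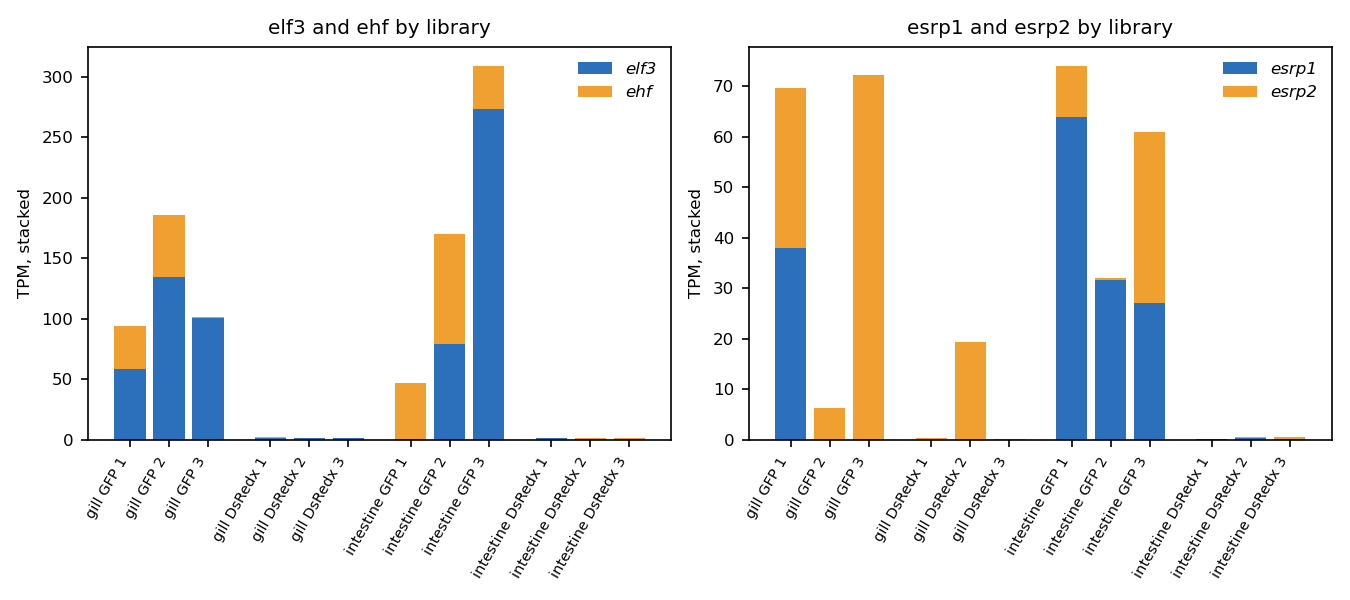
Stacked TPM of elf3 and ehf (left) and of esrp1 and esrp2 (right) in each of the 12 libraries. Each GFP library holds at least 1 gene of each pair, and gill DsRedx 2 is the only DsRedx library with a gene above the trace, esrp2 at 19.2 TPM (the axes are linear and differ between panels).

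The grainyhead-like genes were low. The gene grhl2b (ENSDARG00000061974, listed as GRHL2 in the name table and matched through a RefSeq synonym) was read at 1.61, 10.5 and 3.10 TPM in gill GFP libraries 1 to 3 and at 0, 4.15 and 6.90 TPM in intestine GFP libraries 1 to 3. It had 0 counts in 5 of the 6 DsRedx libraries and 1 count in intestine DsRedx 1. The gill groups did not overlap, as for 12.1% of all tested genes. Intestine GFP 1 was at 0, and that library was also within the trace for elf3.

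The pooled rate of grhl2b was 320.2 times higher in GFP than in DsRedx libraries, with a 95% counting interval of 57.2 to 12680. In gill, where the DsRedx libraries had no count, it was at least 54.05-fold higher, with 3 counts over the group as the floor, and intervals and floors here cover counting error only. Its call over both tissues (adjusted p = 0.0191) held in 6 of the 12 fits that left out 1 library. The other fits, without any 1 of the 3 gill DsRedx libraries, intestine GFP 3 or intestine DsRedx 2 or 3, gave 0.0526 to 0.0618. It was not called in gill (0.104) or intestine (0.172) alone.

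The other grainyhead-like genes were nearly unread. The gene grhl2a (ENSDARG00000058342) had 12 counts in gill GFP 2 and 0 in the other 11 libraries. The gene grhl1 (ENSDARG00000061391) had 7 counts in gill GFP 1, 9 in intestine GFP 2 and 1 in gill DsRedx 2, and was at 0 in the other 9. Neither was tested, and at these counts a difference between groups was not detectable. Another family gene, grhl3, which acts in epidermal barrier formation in mammals, was above the trace in gill GFP 1, intestine GFP 1 and gill DsRedx 3, and was not called over both tissues (adjusted p = 0.316).

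The splicing regulator esrp1 (ENSDARG00000011245) was read in all intestine GFP libraries and in 1 gill GFP library. It stood at 63.8, 31.7 and 27.1 TPM in intestine GFP libraries 1 to 3. In gill GFP it was at 38.0 TPM in library 1 (562 counts), but at 0.0762 and 0.229 TPM (1 and 3 counts) in libraries 2 and 3. The DsRedx libraries held 0 to 6 counts each, 0 to 0.367 TPM. The intestine groups did not overlap, as for 19.4% of all tested genes, and in gill 2 of 3 GFP libraries lay at the DsRedx level.

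Over both tissues esrp1 was higher in GFP cells (log2 fold change 7.10, SE 1.70, adjusted p = 0.00845). Its gill arm rests on 2 counts in the DsRedx libraries, where the pooled ratio was 224.9 with a 95% counting interval of 62.0 to 1862. The value rested in part on gill GFP 1: without it the log2 fold change was 4.11 and the adjusted p 0.0714, and in the gill comparison the log2 fold change then fell to 1.26. The call held without any 1 of the other 11 libraries. It was not called in gill (0.0925) or intestine (0.112) alone.

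The paralog esrp2 (ENSDARG00000018814) was read at 31.6, 6.28 and 71.9 TPM in gill GFP libraries 1 to 3 and at 10.2, 0.291 and 33.8 TPM in intestine GFP libraries 1 to 3. It was at 0.246, 19.2 and 0.235 TPM in gill DsRedx and at 0, 0.124 and 0.275 TPM in intestine DsRedx. The library gill DsRedx 2, with 297 counts, lay above gill GFP 2, so the gill groups overlapped, and intestine GFP 2 was near the DsRedx level. The same library, gill DsRedx 2, was also the gill DsRedx library with the highest cdh1 level and with the highest summed level of the 33 junction and protease genes (778 TPM, 7 genes above the trace). The other gill DsRedx libraries had sums down to 246 TPM. The epcam level was also highest in gill DsRedx 2, at 39.6 TPM, but within the trace. Other epithelial genes did not single out that library. The 8 surface epithelium markers summed to 574.8 TPM there and to 658.1 TPM in gill DsRedx 3. The kdf1a level was the lowest of the gill DsRedx libraries there, at 0.0390 TPM. The part of epithelial cells in the esrp2 value of that library was not tested.

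The esrp2 difference over both tissues was not called (log2 fold change 4.20, SE 1.53, adjusted p = 0.0621). Without gill DsRedx 2 it was 6.61 with adjusted p = 0.0180, and this was the only one of the 12 such fits to call it. At least 1 of esrp1 and esrp2 was above the trace in all 6 GFP libraries and in 1 of 6 DsRedx libraries. As for elf3 and ehf, the share of gene pairs with this pattern was not computed. Their summed level was 69.6, 6.35 and 72.1 TPM in gill GFP and 74.1, 31.9 and 60.9 TPM in intestine GFP, which was chosen after the single values were seen and not tested.

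The gene klf4 (ENSDARG00000079922), a zinc-finger factor of differentiating gut and skin epithelium in mammals, did not accompany epcam in gill. It had 0 counts in all 3 gill GFP libraries and 4, 0 and 9 counts in gill DsRedx libraries 1 to 3. In intestine GFP it was at 77.5, 41.6 and 27.8 TPM and in intestine DsRedx at 205.6, 15.6 and 1.02 TPM in libraries 1 to 3. The intestine reporter groups overlapped, with the highest level of all in intestine DsRedx 1. The reporter difference in intestine was -0.98 on the log2 scale (SE 1.93, adjusted p = 0.871), and without intestine DsRedx 1 it turned to 2.07, so it has no settled direction. In gill klf4 was at least 5.45-fold lower in GFP than in DsRedx libraries on the same floor of 3 counts over the group, and not called (adjusted p = 0.151).

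Between GFP groups klf4 was at least 205.9-fold lower in gill than in intestine, against a floor of 3 counts over the gill libraries, and the groups did not overlap, as for 18.5% of all tested genes. The edgeR call missed the threshold (adjusted p = 0.0743), and 4 of 14 other settings called it, with adjusted p from 4.29e-05 by DESeq2 to 0.751 with the detected-gene covariate. Leaving out 1 library gave 0.0427 (without gill DsRedx 2) to 0.218. Zero counts in the 3 gill GFP libraries were found for 6.38% of all tested genes. The enterocyte markers fabp6 and vil1 were likewise at 0 in all gill GFP libraries, and fabp6 was at 2533 to 3706 TPM in intestine GFP against 23.9 to 24.6 TPM in intestine DsRedx. Other markers of the list overlapped between the reporters: fabp2 was at 29.8, 1199 and 78.0 TPM in intestine GFP and 36.2, 53.2 and 5.05 TPM in intestine DsRedx libraries 1 to 3. The apolipoprotein gene apoa1a was at 25.2 TPM in intestine DsRedx 1, the library with most klf4, and at 2.97, 112.2 and 15.2 TPM in intestine GFP. Other enterocyte markers did not stand out in intestine DsRedx 1: fabp6 was alike in the intestine DsRedx libraries, vil1 was at 2.33, 2.22 and 2.20 TPM in libraries 1 to 3, and apoa4b.1 was at 0 in library 1. The part of enterocytes in the klf4 level was not tested.

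The gene ovol1a (ENSDARG00000076472), a zinc-finger repressor of the OVO family, was above the trace in intestine GFP libraries 2 and 3 only. It had 1, 23 and 290 counts (0.0714, 1.91 and 16.3 TPM) in intestine GFP libraries 1 to 3 and 0 or 1 in each of the other 9. It failed the low-count filter, so no difference between tissues was tested. The library with most of it, intestine GFP 3, was the only library with the goblet cell markers agr2 (24.5 TPM) and spdef (12.5 TPM) above the trace, and their part in the ovol1a level was not tested. The paralog ovol1b was read at 84.6 TPM in gill GFP 1, at 0 in gill GFP 2 and 3, and at 10.01, 15.1 and 1.90 TPM in intestine GFP libraries 1 to 3. Its call over both tissues (adjusted p = 0.0324) was lost in 10 of the 12 fits that left out 1 library, with the highest value without gill GFP 1 (0.9998).

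**Figure D3:**
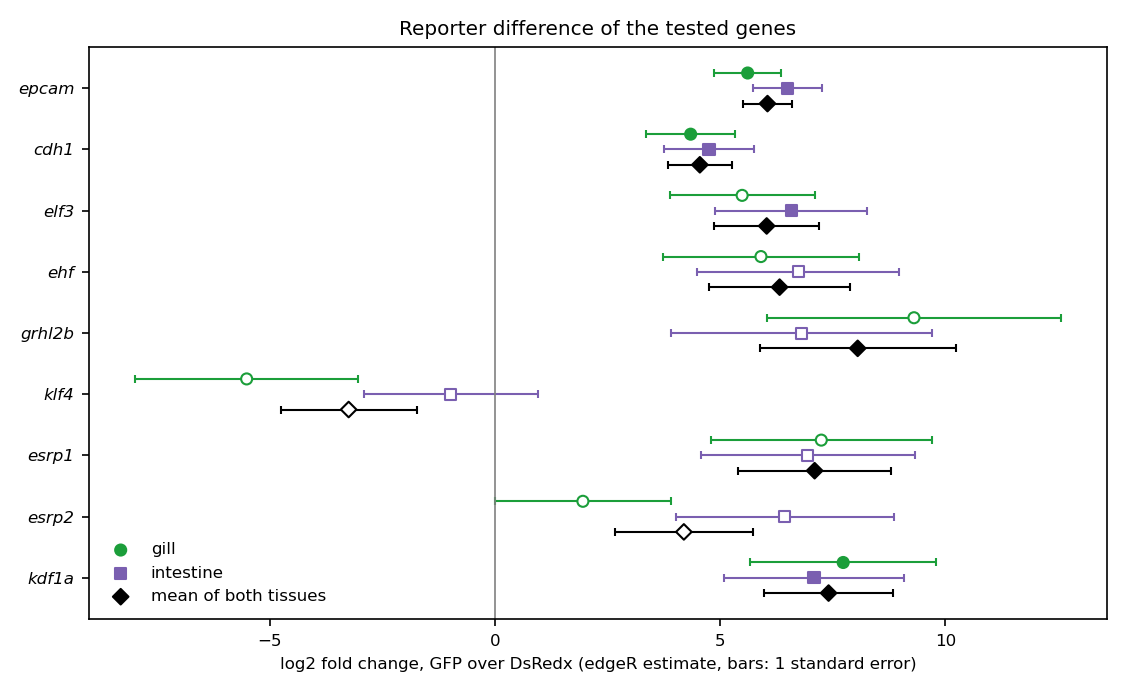
Estimated log2 fold change of GFP over DsRedx for the tested genes, with 1 standard error, in gill, in intestine and over the mean of both; filled symbols have adjusted p under 0.05. The estimate is above 0 for all but klf4; those of grhl2b, and of klf4 and esrp1 in gill, rest on groups at 0 to 3 counts and depend on the prior count.

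The reporter effect was not shown to differ between tissues for any tested member. None of the 7 was called for the difference of the reporter effects, where 0.15% of all tested genes were called, and the estimates ran from -4.53 (SE 2.74) for klf4 to 2.50 (SE 2.71) for grhl2b on the log2 scale, with SE from 1.89 to 2.82 over the 7. With errors of that size, tissue differences of several log2 units were not detectable. Between gill GFP and intestine GFP 0 of 7 was called (2.03% of all tested genes), and between gill DsRedx and intestine DsRedx also 0 of 7 (0.759%).

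The members also varied within a group. Counting genes above the trace, the GFP libraries held 6, 6 and 4 of the 10 in gill and 5, 7 and 8 in intestine, and the DsRedx libraries held 0, 1 and 0 in gill and 1, 1 and 0 in intestine. Of all tested genes, 69.6, 58.1 and 47.2% were above the trace in gill GFP libraries 1 to 3. The share was 75.1, 80.95 and 73.3% in intestine GFP libraries 1 to 3. In DsRedx libraries 1 to 3 it was 46.6, 36.6 and 46.4% in gill and 51.9, 58.05 and 52.4% in intestine. The counts cover all 10 genes, of which 3 failed the filter, while the shares cover only genes that passed it. The counts in GFP libraries can therefore not be set against these shares directly. Those in DsRedx libraries were below the shares, and the 3 untested genes were above the trace in 0 of 6 DsRedx libraries. The pattern of kdf1a, elf3, ehf and grhl2b, above the trace in at least 5 of 6 GFP and in 0 of 6 DsRedx libraries, was found for 3.32% of all tested genes.

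**Figure D4:**
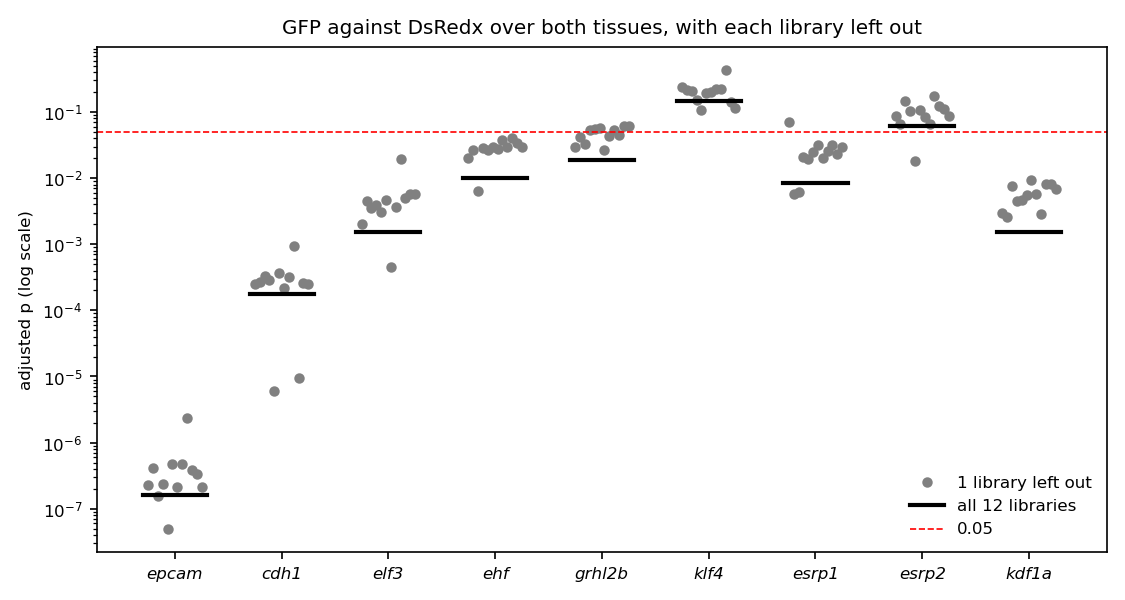
Adjusted p of the GFP against DsRedx difference over both tissues, with all 12 libraries (bar) and with each library left out (points), on a log axis; the dashed line is 0.05. For epcam, cdh1, elf3, ehf and kdf1a all points lie under the line, for grhl2b they lie on both sides, and klf4 lies above it throughout.

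Genes of the same pathway were read from lists of epithelial regulators, repressors, junction and protease genes, and family relatives. The limit that the filter sets for the members holds for these lists too. Of the 13 tested genes among 17 other epithelial regulators, 5 were higher and 1 was lower in GFP cells over both tissues, beside 10.5% and 7.3% of all tested genes. The gene tfap2c, an AP-2 factor of surface ectoderm, was at 93.1 ± 27.1 TPM in gill GFP and 1.70 ± 2.92 TPM in intestine GFP (SD, n = 3), and its call over both tissues (0.0103) was lost without intestine GFP 3 (0.277). The lower gene was rbm47, which encodes an RNA-binding protein that also appears in the splicing list: it was at 0.372 ± 0.254 TPM in gill GFP against 41.8 ± 42.5 TPM in gill DsRedx and at 11.4 ± 8.68 TPM in intestine GFP against 94.2 ± 31.1 TPM in intestine DsRedx (log2 fold change -5.39, adjusted p = 0.00039).

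Among repressors of the epithelial state, 14 genes were found and 3 were tested. Over both tissues 2 of the 3 (zeb2a and zeb1b) were lower in GFP cells, beside 7.3% of all tested genes. Both were near 0 in GFP cells and passed the filter through DsRedx libraries. Once they had passed, a lower level in GFP cells was largely given, so the count describes the tested genes and not the 14. The gene zeb2a, a zinc-finger repressor of cdh1 in mammals, was at 0.135 ± 0.0982 TPM in gill GFP against 22.1 ± 37.1 TPM in gill DsRedx (adjusted p = 0.00187 over both tissues). Its relative zeb1b had adjusted p = 0.0257 and lost its call in 7 of the 12 fits that left out 1 library. In gill DsRedx the SD of zeb2a and of zeb1b over the 3 libraries exceeded the mean.

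Most junction and protease genes rose. Of 33 such genes, epcam and cdh1 among them, 26 were tested and 21 were higher in GFP cells over both tissues, with none lower. Of all tested genes 10.5% were higher and 7.3% lower. The median log2 fold change of the 26 was 5.70, against 0.26 for all tested genes. The serine protease inhibitor gene spint2 was at 748 ± 228 TPM in gill GFP and 467 ± 86.1 TPM in intestine GFP, against 5.96 ± 1.31 and 3.58 ± 0.321 TPM in DsRedx cells (adjusted p = 1.4e-07). The adaptor gene ap1m2, which sorts cargo to the basolateral membrane, was at 261 ± 10.3 and 215 ± 13.7 TPM in gill and intestine GFP against 1.75 ± 0.459 and 1.81 ± 0.150 TPM in DsRedx cells (adjusted p = 7.86e-06). The claudin gene cldn3c was at 3942 ± 1616 TPM in gill GFP and 415 ± 405 TPM in intestine GFP.

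The families of the members held genes called in both directions, beside 10.5% of all tested genes called higher and 7.3% lower. In the ETS family, 17 of 24 genes were tested and 3 were higher (the members elf3 and ehf, and spic) and 3 lower over both tissues. The myeloid ETS gene spi1b, encoding PU.1, was lower in GFP cells (log2 fold change -7.50, adjusted p = 2.33e-06), while spic was at 1741 ± 843 TPM in gill GFP and 1226 ± 263 TPM in intestine GFP (5.39, adjusted p = 4.78e-05). In the KLF family 13 of 21 genes were tested, with 3 higher and 3 lower. The gene klf2a was lower (-7.59, adjusted p = 0.00112) and klf6a was lower by less (-1.69, adjusted p = 0.00652). Of the 16 tested splicing regulators 2 were higher and 2 lower: esrp1 and PTBP2 (ENSDARG00000101947) were higher, and rbm47 and QKI (ENSDARG00000002026) were lower. The PTBP2 call (adjusted p = 0.0354) was lost in all 12 fits that left out 1 library.

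The genes whose log2 CPM was closest to that of each called member over all 12 libraries were found by the root mean square difference, as a description of these libraries only. For elf3 the nearest gene of the 10666 tested was grhl2b, itself a member (0.80 log2 units), followed by mob1bb (0.85) and MARVELD2 (ENSDARG00000061651, tricellulin, a junction gene, 0.93). For kdf1a the nearest was spint1b, a membrane protease inhibitor gene (0.52). For ehf it was PTPN3 (0.52) and for esrp1 HSPA14 (0.51). Each gene was first centred on its own mean, so absolute level does not enter this measure. It reads the size of the differences between libraries as well as their pattern. In likeness to the members epcam ranked between 108 (ehf) and 891 (esrp1), and cdh1 between 202 (kdf1a) and 1376 (esrp1). For each of these members cdh1 ranked farther than epcam.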

How the data were processed

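The authors deposited raw counts per Ensembl gene for the 12 libraries, unpooled, and the same data as TPM. STAR, featureCounts and danRer11 are named in the submitters' processing notes, without versions or settings. How reads matching several paralogs were counted is not stated, which leaves paralog levels uncertain. Members were matched by symbol or RefSeq synonym. The members and lists were chosen with earlier results of these data known. Named list genes were up to 4 per list with the lowest adjusted p over both tissues among those called, and 1 gene named by this rule is not reported here.

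Genes were filtered with filterByExpr of edgeR 4.0.16 (10666 kept), scaled by TMM and fitted with 1 mean per group on all 12 libraries (8 residual degrees of freedom, common biological coefficient of variation 1.42). The quasi-likelihood test was run on 6 contrasts, adjusted by Benjamini-Hochberg over all tested genes and called under 0.05. The SE is the log2 fold change over the root of F. The scripts were tested on simulated data. Alternatives used DESeq2 1.42.0, limma 3.58.1 on log2 TPM and R 4.3.3. No promoter or protein sequence was used here.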

Additional observations from a re-analysis of the deposited data

How the results depend on the processing

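Over both tissues 5 members were called, and the alternatives with a value gave a count within 1.5 times of 5 except the fit with a covariate for how many genes a library detected, which gave 2 (elf3 and kdf1a). That covariate had a higher mean in GFP than in DsRedx libraries of each tissue, with overlap in gill. The adjusted p there was 0.305 for ehf, 0.654 for esrp1 and 0.124 for grhl2b. The cause was not tested. In gill, where 1 member was called, the count was 2 with the filter of 10 CPM in 3 libraries, 4 by DESeq2, and 0 with robust dispersion, the replicate block, the covariate, the 2 groups only, limma on log2(TPM + 1) without filter and the shared low level subtracted. In intestine, with 2 called, it was 1 with RLE, no filter, robust dispersion and limma without filter, 0 with the replicate block, the covariate and the shared low level subtracted, and 4 with the 2 groups only and by DESeq2. An equal count could hide other members. In intestine limma on log2(TPM + 1) called ehf (adjusted p = 0.0179) and esrp1 (0.0232), but not elf3 (0.117) or kdf1a (0.0803). Without filter its 1 call was ehf (0.0347). Between tissues in GFP cells, with 0 called, the count was 1 (klf4) without filter, by DESeq2 and by limma with a pseudocount of 1 or 0.1, and in DsRedx cells 2 by DESeq2. Leaving out 1 library gave 0 to 1 members in gill, 0 to 2 in intestine, 4 to 5 over both tissues, 0 to 1 between tissues in GFP cells and 0 for the other contrasts. Of the single-gene values under all alternatives, 1029 kept their direction and side of the threshold, 137 lost a call, 24 gained one and 9 changed sign. The log2 fold change of klf4 between reporters in intestine changed sign to 0.0403 with the replicate block, 0.23 with the covariate, 1.27 by limma with a pseudocount of 1, with or without filter, 1.55 with a pseudocount of 0.1, and 2.07 without intestine DsRedx 1 (range without 1 library -1.76 to 2.07). Over both tissues it was 0.23 by limma with a pseudocount of 1, with or without filter. For ovol1b over both tissues the covariate gave -1.66. The labels do not say whether the replicate number pairs samples. Same-numbered libraries had deviations correlated at -0.032 to 0.04, which cannot exclude pairing, and the block changed the counts above. DESeq2 gave no adjusted p for esrp1, cdh1, tfap2c, zeb2a and spic, and these 9 values are not counted. Counts of 0 to 3 in a group limit grhl1, grhl2a, grhl2b, ovol1a, and klf4 and esrp1 in gill.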
